A study of Rattus norvegicus with 9 samples.

Results

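Apolipoproteins are the protein components of lipoproteins, the particles that carry triglyceride and cholesterol through blood. The 10 genes described here were Apoa1, Apoa2, Apoa4, Apoa5, Apob, Apoc1, Apoc2, Apoc3, Apoe and Apoh. They were taken as every probe set of a rat liver array annotated with exactly 1 of these symbols. This gave 12 probe sets of 31042, and 11 of the 12 passed the filter on dim signals, as did 18625 probe sets in all. All 10 genes kept at least 1 probe set.

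Liver RNA was measured on 9 one-colour Affymetrix arrays, 3 for each of a drug, a model and a control group. The drug group carries the label 7-P. What 7-P is, how the model rats were treated, and whether the drug rats also went through that treatment are not stated in the labels. The animals were Wistar rats, all labelled male, of 180 to 220 g, with no age in the labels, and each group held 12 of the 36 rats in the study. The labels do not say how each arrayed sample was taken beyond the random choice of a rat, so p-values measure the spread between these 9 samples.

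The liver makes most plasma apolipoproteins. A single molecule of apoB forms the backbone of each very low density lipoprotein, whereas apoA-I and apoA-II form high density lipoprotein. The smaller exchangeable apolipoproteins move between particles and tune how quickly lipoprotein lipase empties them and how receptors take up what is left. In the rat, Apoa4 is made in liver as well as in intestine.

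The genes lie partly in clusters. In the RefSeq rat gene table (assembly GRCr8), Apoa1, Apoc3, Apoa4 and Apoa5 are direct neighbours in that order, and Apoe, Apoc1, Apoc4 and Apoc2 are direct neighbours in another cluster. RefSeq promoter windows were matched for 6 of the 10 genes, with 10 windows in all, each read here over the 250 bases before the start. The windows of Apoa4 and Apoa5 are shown because these neighbours had the largest mean differences of the family between model and control livers. That of Apoc1, in the other cluster, is shown as an example of a gene with a model mean within 0.05 of the control mean. Apoe, in the same cluster and also with matched windows, had a smaller difference, of 0.01, and is not shown. Capitals mark matches to 5 short motifs searched on both strands. These were TATAAA (the TATA box), CACGTG (an E-box), GGGCGG (the GC box of Sp1 factors), AGGTCA (the core of a nuclear receptor site) and AAAGTCCA (the core of the HNF4 site), the last chosen after the Apoa4 window had been read. No matched motifs overlapped in these windows. The windows, each 5′ to 3′ on the strand of its gene, were Apoa4 at chr8:55435529-55435778 (+), Apoa5 at chr8:55457621-55457870 (+) and Apoc1 at chr1:88478306-88478555 (−), all in GRCr8.
Apoa4: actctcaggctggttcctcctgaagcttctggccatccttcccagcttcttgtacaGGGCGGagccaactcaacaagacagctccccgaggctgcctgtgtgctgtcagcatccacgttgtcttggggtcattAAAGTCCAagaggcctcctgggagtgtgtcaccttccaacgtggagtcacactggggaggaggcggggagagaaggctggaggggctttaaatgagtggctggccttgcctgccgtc
Apoa5: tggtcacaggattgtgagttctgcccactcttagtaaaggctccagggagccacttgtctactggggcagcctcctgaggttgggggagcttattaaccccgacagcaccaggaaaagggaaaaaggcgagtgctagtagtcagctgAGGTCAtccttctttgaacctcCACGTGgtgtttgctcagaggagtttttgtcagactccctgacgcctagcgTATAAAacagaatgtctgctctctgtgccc
Apoc1: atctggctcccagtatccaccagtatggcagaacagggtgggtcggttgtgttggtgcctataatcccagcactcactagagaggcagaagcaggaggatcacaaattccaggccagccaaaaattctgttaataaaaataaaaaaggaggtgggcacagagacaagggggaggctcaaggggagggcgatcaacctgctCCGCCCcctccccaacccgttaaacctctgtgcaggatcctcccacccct
The Apoa4 window held AAAGTCCA 117 bases and GGGCGG 194 bases before the start. The Apoa5 window held TATAAA at 30, CACGTG at 81 and AGGTCA at 103 bases before the start. The Apoc1 window held GGGCGG on the reverse strand, 50 bases before the start. Of 33469 rat promoter windows of the same length, 12.9% held TATAAA, 5.59% CACGTG, 30.5% GGGCGG, 14.1% AGGTCA and 1.19% AAAGTCCA. A match describes letters and not a bound site.

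Some properties of the arrays bear on every value below. Trimmed mean signals as deposited lay between 33.6 and 81.1, and the values were quantile-normalized, so all differences are relative to the whole array. The ratio of 3′ to 5′ signal of Gapdh, which is higher where less of the 5′ end was measured, was 1.31, 9.20 and 8.71 in drug arrays 1, 2 and 3, 4.09, 12.7 and 9.77 in model arrays 1, 2 and 3, and 1.52, 3.14 and 3.07 in control arrays 1, 2 and 3. Over the probe sets past the filter, drug 1 correlated at 0.922 with control 1, and at 0.806 and 0.808 with drug 2 and 3. Control 1 correlated at 0.865 and 0.889 with control 2 and 3. Control 1 and drug 1 were left out together in 1 of the settings below. The libraries labelled control 2 and drug 3 stood apart from the other 7 in sex-linked transcripts. Eif2s3y, a Y-linked gene, was at log2 7.17 in drug 3 and 6.99 in control 2, and at 2.53 or less in the other 7, and Xist went the opposite way. Uty, also Y-linked, did not follow Eif2s3y, at 5.71 in drug 3 and 6.19 in control 2 and at 6.54 to 6.80 in the other 7. The Xist and Eif2s3y values go against the label male for those 7. Of the 11 hepatocyte markers on the array all 11 passed the filter, and the log2 of their summed signal was 15.53 to 15.58 in drug, 15.40 to 15.63 in model and 15.53 to 15.55 in control livers, which fits the label liver. In bulk RNA, fewer cells of a type and less RNA per cell cannot be told apart.

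**Figure D1:**
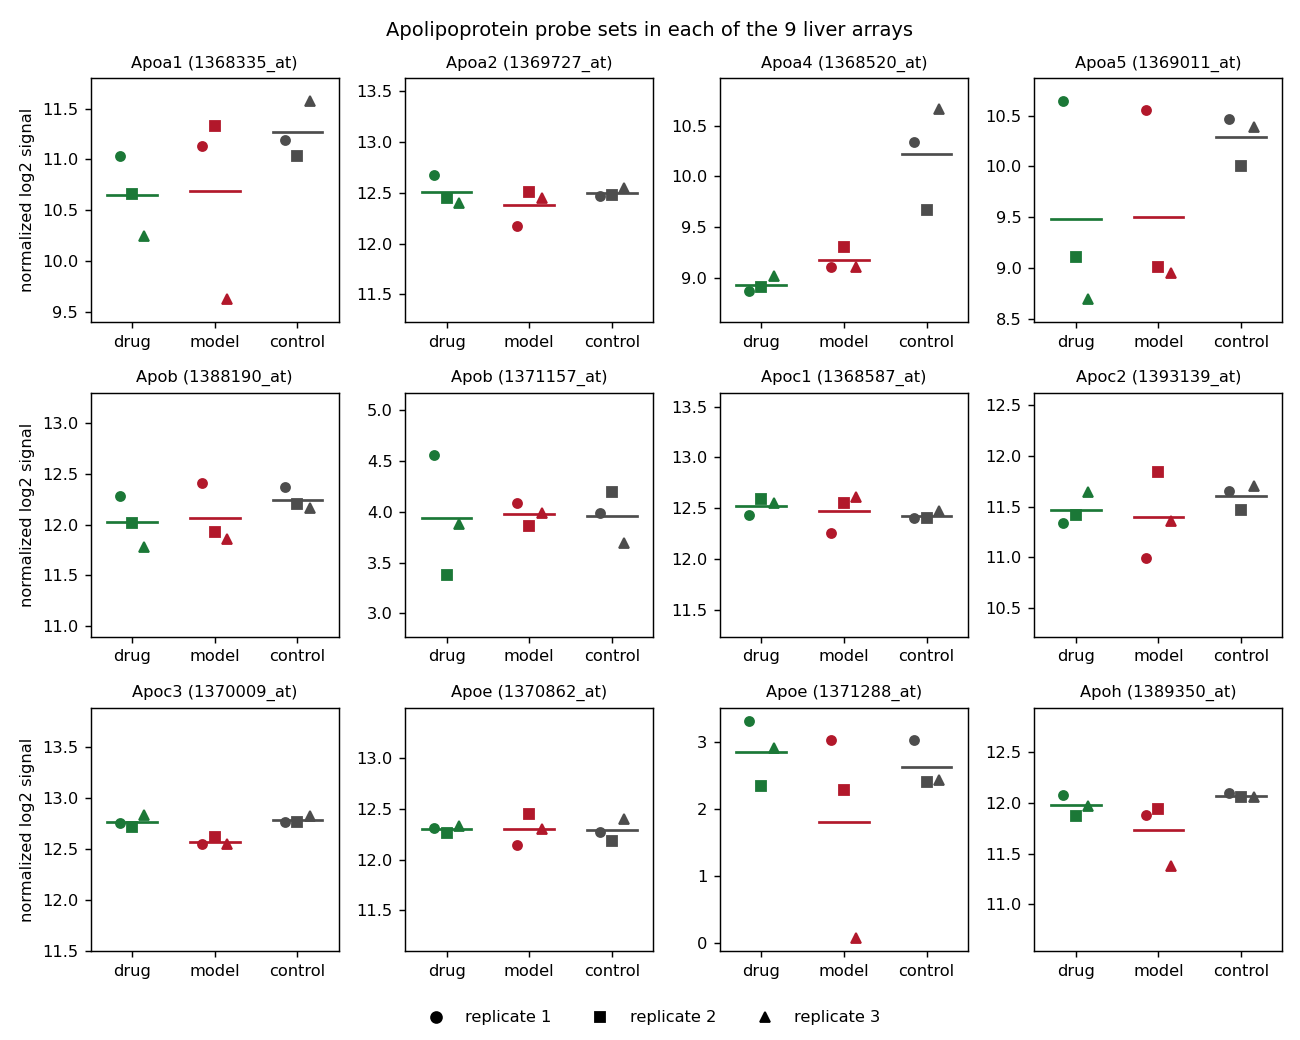
Normalized log2 signal (vertical axis) of each apolipoprotein probe set in drug, model and control livers, with 1 point an array, the marker shape giving the replicate number and the bar the group mean. Each vertical axis spans at least 2.4 log2 units at a position that differs between panels. The 3 control points of Apoa4, at 9.67 to 10.66, lie above the drug and model points at 8.87 to 9.31.

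Apoa4 had the largest difference of the family in the model livers. ApoA-IV is an exchangeable apolipoprotein of chylomicrons and high density lipoprotein that activates lecithin-cholesterol acyltransferase. Its probe set gave log2 signals of 8.87, 8.91 and 9.02 in drug livers 1, 2 and 3, of 9.11, 9.31 and 9.11 in model livers 1, 2 and 3, and of 10.34, 9.67 and 10.66 in control livers 1, 2 and 3. All model arrays lay below all control arrays, and all drug arrays lay below both groups. The means were 8.93 ± 0.079 in drug, 9.17 ± 0.116 in model and 10.22 ± 0.506 in control livers (SD, n = 3 each), so the spread was widest among controls. As deposited, before normalization, the signals were 768, 318 and 350 in drug, 525, 453 and 413 in model and 2808, 702 and 2539 in control livers. On that scale drug 1 exceeded control 2, and only the model arrays stayed below every control array.

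In model against control livers Apoa4 differed by −1.05 (SE 0.255, 95% interval −1.62 to −0.48), a model level 0.483 times the control level. The unadjusted p was 0.00207, and the limma adjusted p over all 18625 probe sets was 0.384, so the difference did not pass the 0.05 threshold. In drug against control livers it was −1.29 (SE 0.255, 95% interval −1.86 to −0.72), 0.409 times the control level, with a limma unadjusted p of 0.000488 and adjusted p of 0.676. Between drug and model livers the difference was −0.24 (SE 0.255, 95% interval −0.81 to 0.33; limma adjusted p 0.998), and the absence of overlap there was lost under each of the 3 other scalings tried. The model against control and drug against control comparisons share the control arrays and are not independent of each other. The smallest p that an exact permutation test of 3 against 3 arrays allows is 0.1. A limma F test for any difference between the 3 groups gave Apoa4 an unadjusted p of 0.0011 and an adjusted p of 0.657. Of all probe sets 7.45% had an unadjusted F-test p under 0.05, and among the members Apoa4 alone did.

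Over 23 other settings, each array left out in turn among them, the model minus control difference of Apoa4 stayed between −1.89 and −0.83, and the drug minus control difference between −1.96 and −1.07. With a term for the Gapdh ratio they were −1.09 and −1.31, and without control 2 and drug 3 they were −1.33 and −1.61. No setting brought the adjusted p under 0.05, and the lowest was 0.0933 for model and 0.0811 for drug against control. Intestinal epithelium, the other main source of Apoa4, was checked through its markers. Of 9 on the array 3 passed the filter, Anpep, Muc2 and Cdx2, all lower by mean in model than in control livers. Muc2 averaged 3.15 in model and 3.61 in control livers, and Cdx2 3.96 and 4.01. In drug against control livers 1 of the 3 was higher and 2 lower. Fabp2, Vil1, Alpi, Cdh17, Lgals4 and Cdx1 did not pass, though Cdh17 was at 6.55 in control 2. The log2 of the summed signal of all 9 was 8.10 to 8.20 in drug, 7.37 to 8.51 in model and 8.34 to 9.03 in control livers. Anpep, which hepatocytes also express, supplied most of that sum, at 7.81 in drug, 7.37 in model and 8.31 in control livers on average. The part of such cells in the Apoa4 difference was not tested.

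Most macrophage markers were higher by mean in the livers in which Apoa4 was lower. Of 10 past the filter, 9 were higher by mean in drug and 7 higher by mean in model than in control livers. The log2 of their summed signal was 10.47 to 11.32 in drug, 10.66 to 11.51 in model and 9.85 to 10.70 in control livers. Cd163, a scavenger receptor of Kupffer cells, differed by 1.18 in drug against control (SE 0.253, limma adjusted p 0.676). It differed by 1.25 in model against control (SE 0.253, limma adjusted p 0.373), without overlap in either. In each comparison 3 of the 10 markers were higher without overlap, as were 6.05% of all probe sets in drug and 11.8% in model livers. Of the 10, 3 were lower by mean in model than in control livers. The part of these cells in the Apoa4 difference was not tested.

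The 3 other genes whose profile over the 9 arrays lay closest to that of Apoa4, of 10422 compared, were Glce, Slc25a1 and Tmem252. The measure was the root mean square distance of mean-centred log2 values, 0.231, 0.278 and 0.312. Slc25a1, the mitochondrial citrate carrier, averaged 8.17 in drug, 8.27 in model and 9.19 in control livers. Glce, an epimerase of heparan sulfate synthesis, averaged 5.18 in drug, 5.58 in model and 6.30 in control livers. These genes were picked for that profile, and their values are a description.

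Apoa5 and Apoa1 were lower on average in model and drug livers, with the model and drug arrays, but not the control arrays, spread over more than the difference. ApoA-V, made almost only in liver, promotes clearance of triglyceride by lipoprotein lipase. Its probe set gave 10.64, 9.10 and 8.69 in drug livers, 10.56, 9.01 and 8.95 in model livers, and 10.47, 10.003 and 10.39 in control livers. Drug 1 and model 1 lay above every control array, and the other 4 drug and model arrays lay below every control array. The model minus control difference was −0.78 (SE 0.535, 95% interval −1.98 to 0.41; limma adjusted p 0.537), and the drug minus control difference was −0.81 (SE 0.535, 95% interval −2.00 to 0.38; limma adjusted p 0.733). Without control 2 and drug 3 they were −0.93 and −0.56. Leaving out model 1 gave −1.31 and model 3 −0.51 in model against control, and leaving out drug 1 gave −1.38 and drug 3 −0.42 in drug against control. The drug minus model difference was −0.03 (SE 0.535; limma adjusted p 0.998).

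The Apoa5 signal divided the arrays as the Gapdh ratio did. It was 10.003 to 10.64 in the 5 arrays with a Gapdh ratio of 4.09 or less, and 8.69 to 9.10 in the 4 arrays with a ratio of 8.71 or more. Those 4 arrays were drug 2 and 3 and model 2 and 3. With a term for the ratio in the limma fit, the model minus control difference of Apoa5 was 0.36 (SE 0.315, adjusted p 0.770), the opposite sign, and the drug minus control difference was −0.17 (adjusted p 0.901). By its brighter probe set Apob showed the same division, at 12.16 to 12.41 in the 5 arrays of low ratio and 11.78 to 12.02 in the 4 of high ratio. Apoc1 showed the reverse, at 12.25 to 12.47 and 12.55 to 12.61. The other member probe sets past the filter overlapped between these sets of arrays. The share of all probe sets divided by the ratio was not counted, so the division cannot be read as particular to these genes. Apoa4 was not divided this way, at 8.87 to 10.66 in the 5 arrays of low ratio and 8.91 to 9.31 in the 4 of high ratio. Drug 1, with the lowest ratio of all arrays, had the lowest Apoa4 signal. Every array of high ratio was a drug or model array, so the ratio term cannot fully separate ratio from group. The cause of these divisions was not tested.

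**Figure D2:**
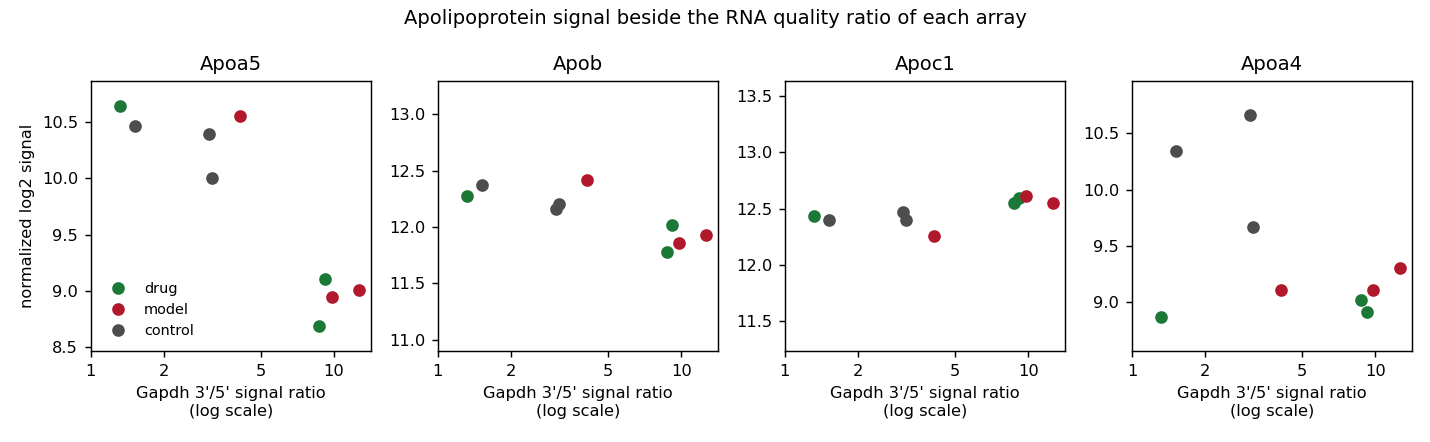
Normalized log2 signal of Apoa5, Apob, Apoc1 and Apoa4 (vertical axes, all spanning 2.4 log2 units) against the Gapdh 3′ to 5′ signal ratio of the same array (horizontal log axis), with 1 point an array coloured by group. The 4 arrays with a ratio of 8.71 or more hold the lowest Apoa5 signals, at 8.69 to 9.10, whereas Apoa4 is high in the 3 control arrays alone.

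ApoA-I is the main protein of high density lipoprotein and the acceptor of cholesterol from cells. Apoa1 was at 11.03, 10.66 and 10.25 in drug livers, 11.13, 11.33 and 9.62 in model livers, and 11.19, 11.04 and 11.57 in control livers. The drug arrays all lay below the controls, drug 1 at 11.03 just under control 2 at 11.04, and this separation was lost with median centring and without normalization. Model 1 and 2 lay within the control range and model 3 below every other array, while with median centring all model arrays lay below all control arrays. The model minus control difference was −0.58 (SE 0.413; limma adjusted p 0.553) and −0.04 without model 3. The drug minus control difference was −0.62 (SE 0.413, 95% interval −1.54 to 0.30; limma adjusted p 0.733), and it was −0.05 (SE 0.413) in drug against model livers.

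Apoc3 and Apoh were lower without overlap in model than in control livers, by small differences. ApoC-III inhibits lipoprotein lipase and slows uptake of remnant particles. Apoc3 was at 12.75, 12.72 and 12.84 in drug livers, 12.55, 12.61 and 12.55 in model livers, and 12.77, 12.77 and 12.82 in control livers. Every model array lay below every drug and every control array. The model minus control difference was −0.22 (SE 0.146; limma adjusted p 0.533), the drug minus model difference was 0.20 (SE 0.146; limma adjusted p 0.998), and drug and control means lay within 0.02 of each other. Apoc3 was among the brightest 18 probe sets of every array, where quantile normalization ties values to rank. The separation of model from control was lost without normalization and with trimmed mean scaling, under which that difference was −0.03, and the separation of drug from model was lost under each of the 3 other scalings.

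Apoh encodes beta-2-glycoprotein I, a plasma protein that binds anionic phospholipid. It was at 12.08, 11.87 and 11.97 in drug livers, 11.88, 11.94 and 11.38 in model livers, and 12.09, 12.05 and 12.05 in control livers. All 3 model values lay below the control values, with model 3 the lowest, and this separation was lost without normalization. The model minus control difference was −0.33 (SE 0.190; limma adjusted p 0.472) and −0.16 without model 3. The drug minus model difference was 0.24 (SE 0.190; limma adjusted p 0.998) and 0.07 without model 3.

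The other 5 members overlapped between groups in all 3 comparisons. Apob, the structural protein of very low density lipoprotein, was at 11.78 to 12.28 in drug, 11.86 to 12.41 in model and 12.16 to 12.37 in control livers by its brighter probe set, and differed by −0.18 (95% interval −0.65 to 0.29) in model against control. Its dimmer probe set, at 3.38 to 4.56 over all arrays, gave 0.02 (95% interval −0.81 to 0.85). Apoe, the ligand by which remnant particles bind hepatic receptors, was at 12.26 to 12.33 in drug, 12.15 to 12.45 in model and 12.19 to 12.40 in control livers. Its model minus control difference was 0.01 (95% interval −0.35 to 0.37). The dimmer probe set of Apoe was the one that did not pass the filter, at 0.07 to 3.31.

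Apoc2, the activator of lipoprotein lipase, was at 11.33 to 11.64 in drug, 10.99 to 11.84 in model and 11.47 to 11.70 in control livers, a model minus control difference of −0.21 (95% interval −0.72 to 0.30). Apoa2, the other structural protein of high density lipoprotein, was at 12.40 to 12.68 in drug, 12.18 to 12.51 in model and 12.47 to 12.55 in control livers, a difference of −0.12 (95% interval −0.50 to 0.25). Apoc1, an inhibitor of lipoprotein uptake, was at 12.43 to 12.59 in drug, 12.25 to 12.61 in model and 12.40 to 12.47 in control livers, a difference of 0.05 (95% interval −0.32 to 0.42). These intervals leave room for differences of either sign. With median centring, Apoa2 was lower without overlap in model against control and Apoc2 in drug against control, and with trimmed mean scaling Apob and Apoh were in drug against control. Over all 9 arrays the range was 0.30 for Apoe, 0.29 for Apoc3 and 0.36 for Apoc1, against 1.79 for Apoa4 and 1.95 for both Apoa1 and Apoa5. Apoe, Apoc3 and Apoc1 were among the brightest 44 probe sets of every array, where quantile normalization ties values to rank. Apoa1, Apoa4 and Apoa5 were dimmer, with ranks of 91 to 1082, so these ranges are not on an equal footing.

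**Figure D3:**
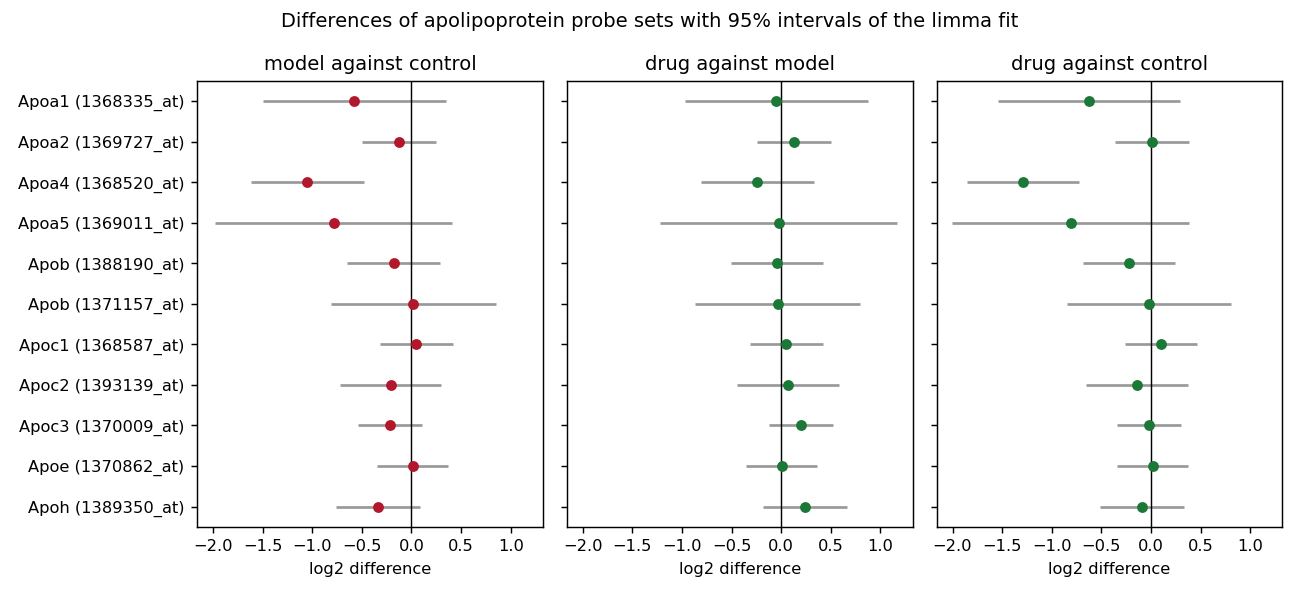
Log2 difference (horizontal axis) of the 11 apolipoprotein probe sets past the filter in model against control, drug against model and drug against control livers, each with the 95% interval of the limma fit. The Apoa4 intervals, −1.62 to −0.48 for model and −1.86 to −0.72 for drug against control, are the ones that leave out 0.

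By count, 0 of the 10 genes passed the limma adjusted threshold in any comparison, as did 0% of all probe sets. By the sign of the mean alone, including members within 1 SE of 0, 8 of 10 members were lower and 2 higher in model against control livers, with a median of −0.21 beside 0.01 for all genes. The member lower at an unadjusted p under 0.05 was Apoa4, where 5.54% of probe sets were lower and 6.51% higher by that rule. Apoa4, Apoc3 and Apoh were below control without overlap, where 10.9% of probe sets were, and no member was above it without overlap, where 11.8% were.

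In drug against model livers 6 members were higher and 4 lower by sign alone, with a median of 0.03 beside −0.03 for all genes. None had an unadjusted p under 0.05, against 1.47% of probe sets higher and 1.8% lower. Apoc3 was higher and Apoa4 lower without overlap, beside 3.35% of probe sets higher and 4.7% lower. In drug against control livers 3 members were higher and 7 lower by sign alone, with a median of −0.12 beside −0.03 for all genes. Apoa4 was the member with an unadjusted p under 0.05, where 3.03% of probe sets were lower and 4.19% higher. Apoa1 and Apoa4 were lower without overlap, as were 6.49% of probe sets, while 6.05% were higher.

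**Figure D4:**
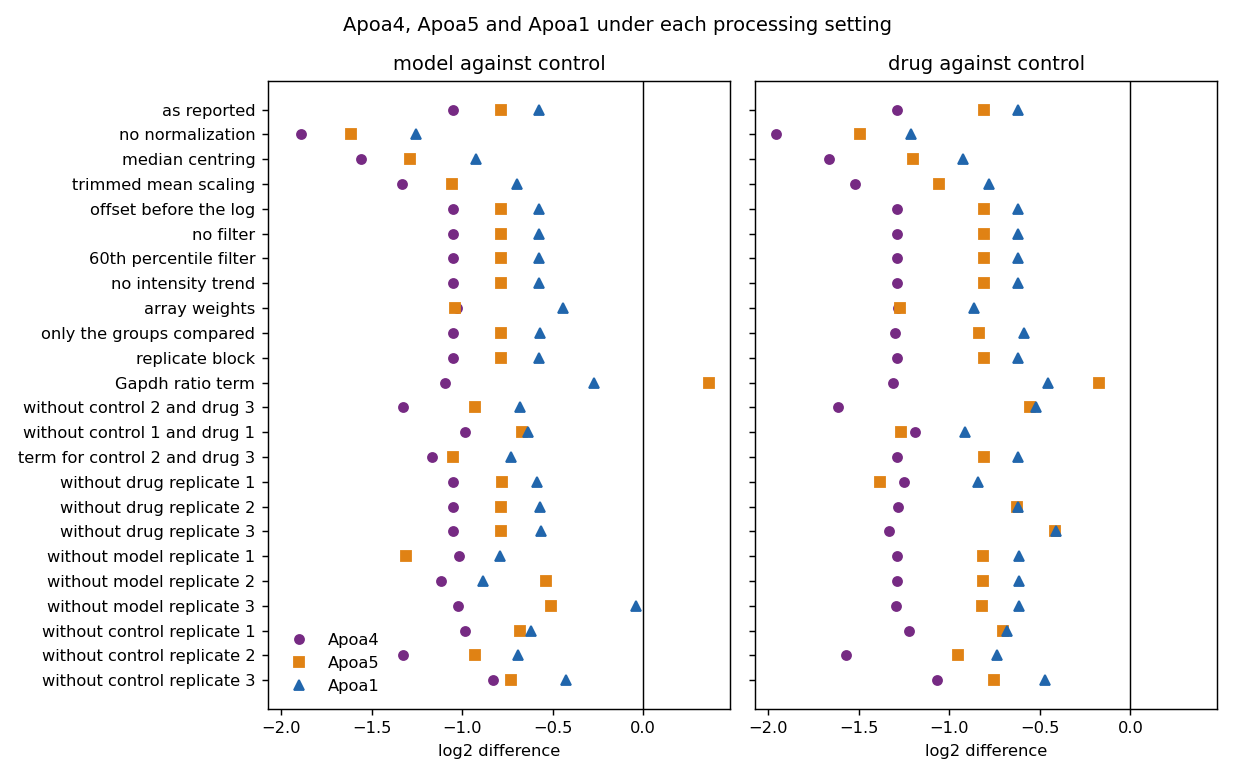
Log2 difference (horizontal axis) of Apoa4, Apoa5 and Apoa1 in model against control and drug against control livers under each processing setting (vertical axis). Apoa4 stays between −1.89 and −0.83 in model against control, while Apoa5 is at 0.36 with the Gapdh ratio term and Apoa1 at −0.04 without model replicate 3.

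Genes that assemble, remodel or bind the same particles were set beside the apolipoproteins, and none passed the limma adjusted threshold in any comparison. Of 12 other apolipoproteins and associated proteins on the array 10 passed the filter. In model against control livers 4 of these were higher and 6 lower, with a median of −0.20, and 4 of the 6 had an unadjusted p under 0.05, a rule by which 5.54% of all probe sets were lower and 6.51% higher. Pon1, an esterase carried on high density lipoprotein, was at 11.59, 10.74 and 10.91 in drug, 10.49, 10.76 and 10.39 in model and 11.59, 11.41 and 11.35 in control livers. The model arrays lay below the controls, by −0.90 on average (SE 0.241; limma adjusted p 0.384), and drug 2 lay within the model range. The model minus control difference was −0.57 with the Gapdh ratio term. The drug minus model difference of Pon1 was 0.53 (SE 0.241; limma adjusted p 0.998) and 0.29 without drug 1. Apon, apolipoprotein N, was 1.05 lower on the log2 scale in model than in control livers by mean, at 7.83 and 8.88 (SE 0.409; limma adjusted p 0.397), and the difference was −0.66 without control 2.

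Of 16 genes of lipoprotein assembly past the filter, 6 were higher and 10 lower in model against control livers, with a median of −0.08. Mttp, the microsomal transfer protein that lipidates apoB, differed by −0.22 (SE 0.296; limma adjusted p 0.759). A1cf, the cofactor that guides editing of Apob RNA, differed by −1.15 (SE 0.443; limma adjusted p 0.397), and by −0.50 with the Gapdh ratio term. Cideb, a lipid droplet protein needed to load very low density lipoprotein, was at 9.04 in drug and 9.75 in model livers on average, −0.71 (SE 0.362; limma adjusted p 0.998) and −0.40 without control 1 and drug 1.

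Among 16 enzymes and receptors past the filter, 7 were higher and 9 lower in model against control livers, with a median of −0.07. In drug against control livers 4 were higher and 12 lower, with a median of −0.25. There 6 were lower and 1 higher without overlap, beside 6.49% of all probe sets lower and 6.05% higher. Hepatic lipase (Lipc), which trims remnants and high density lipoprotein, was at 9.77, 9.40 and 9.74 in drug, 8.55, 9.29 and 8.75 in model and 9.93, 9.93 and 10.06 in control livers. Model arrays were below all others, by −1.11 against control (SE 0.233; limma adjusted p 0.373), and drug arrays were 0.77 above model (SE 0.233; limma adjusted p 0.998). Phospholipid transfer protein (Pltp) was highest in the model livers, at 6.21, 7.41 and 6.84 in drug, 8.70, 8.92 and 7.87 in model and 6.66, 7.51 and 7.17 in control livers. It was 1.39 higher in model than in control (SE 0.385; limma adjusted p 0.384), and the drug minus model difference was −1.68 (SE 0.385; limma adjusted p 0.998). Lipc and Pltp kept their sign under all 23 other settings in model against control and in drug against model livers.

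**Figure D5:**
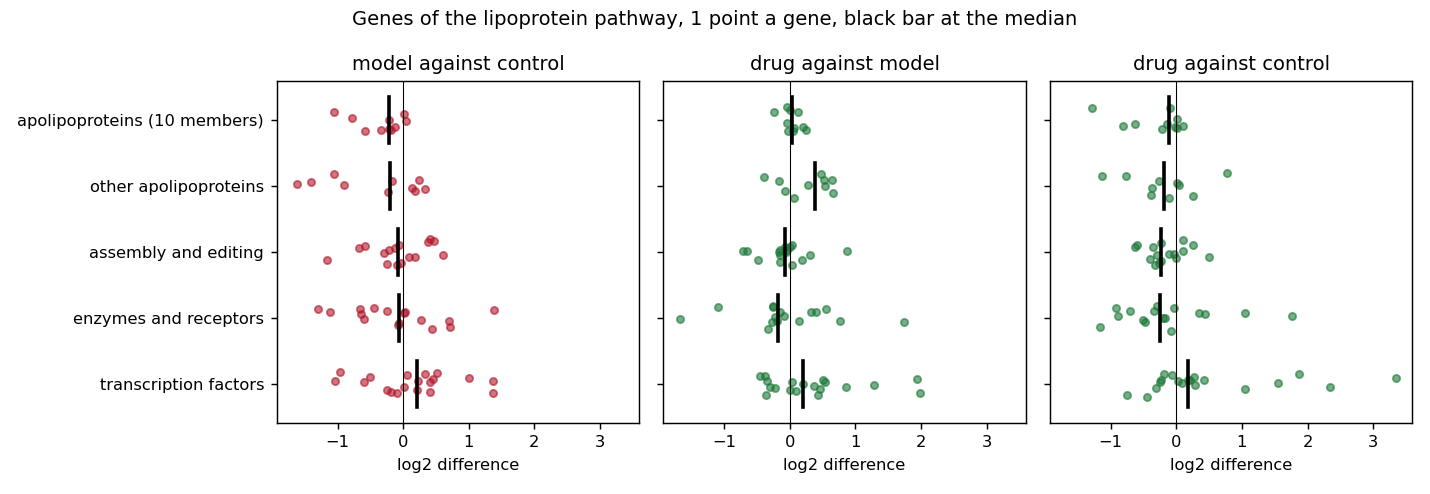
Log2 differences (horizontal axis) of the 10 apolipoproteins and of 4 other gene lists of lipoprotein biology (rows) in the 3 comparisons, with 1 point a gene, heights within a row without meaning, and a black bar at the median. The apolipoproteins have a median of −0.21 in model against control, and the transcription factors reach 3.35, for Nr1d1, in drug against control.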

How the data were processed

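RNA of 9 rat livers was hybridised to one-colour Affymetrix arrays, labelled with biotin by the maker's protocol, per the labels' protocols. The deposited values are linear signal intensities, 1 for each probe set and array, made with GCOS 1.2 per the submitters' processing notes; its scaling was not given in the sources used here. After 57 control probe sets were left out, log2 intensities were quantile-normalized, which removes any difference in total signal. Probe sets with a mean at or above the 40th percentile (18625 of 31042) entered 1 limma 3.58.1 fit (R 4.3.3) with a term for each group and an intensity-trended eBayes. Tests were two-sided and Benjamini-Hochberg adjusted over all 18625, with a threshold of 0.05. A gene with several probe sets was counted by its brightest. The number of arrays limits the precision.

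Named were all 10 members, up to 2 genes of smallest unadjusted p from each list and comparison, 3 genes closest in profile to the member of smallest F-test p, and sex-linked genes as array checks. Mttp and Hnf4a were chosen after their values were seen. The members and lists were chosen with earlier results of these data known. The settings tried were other normalizations, an offset of 0.629 before the log, other filters (none, 60th percentile), no trend, weights for each array, a fit of just the compared groups, the replicate number as a block, a Gapdh ratio term, leaving out or modelling arrays that stand apart, and leaving out each array. The fit was tested on simulated data.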

Additional observations from a re-analysis of the deposited data

How the results depend on the processing

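Of the 33 member differences 11 lay more than 1 SE from 0, and 10 of these kept 1 sign under every one of the 23 other settings. The exception was Apoa5 in model against control, at 0.36 with the Gapdh ratio term. For differences within 1 SE of 0, a change of sign between settings was not counted as a reversal. Of the other lists, just the up to 2 genes of smallest unadjusted p in each list and comparison were followed. Among these 48 differences, 45 kept 1 sign. They were picked for small p, so this count says nothing of the other genes of the lists. Alb in drug against control was −0.0917 without normalization, and those of Cyp2c12 and Uty in drug against control also changed sign. No member probe set passed the threshold in any setting. Over all probe sets, 0 passed in model against control, whereas 1 passed without normalization, 4 with array weights, 1 without control 1 and drug 1, and 0 to 1 when each array was left out. In drug against model 1 passed with only the groups compared, 1 without control 1 and drug 1, and 0 to 1 when each array was left out. With the replicate block 3 probe sets passed in model against control, and unadjusted calls went to 3633, against 2245 without it. Deviations from the group means of same-numbered arrays correlated at 0.195, −0.005 and 0.168 for numbers 1, 2 and 3 in model and control. They correlated at 0.389, 0.082 and 0.182 in drug and model, and at 0.482, 0.04 and 0.063 in drug and control. An array correlated best with its own number in another group in 10 of 18 cases, each with 3 numbers to choose from. Whether the numbers mark a pairing cannot be told from these values, and the main fit did not use them. Without normalization the median of all probe sets was −0.40 in model against control and −0.36 in drug against control, and with trimmed mean scaling 0.16 and 0.07, so unnormalized and scaled differences are shifted by that much. The cause of these changes was not tested.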

Other observations

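Transcription factors known to act on apolipoprotein genes were spread more widely than the apolipoproteins in drug against control livers, from −0.76 to 3.35. These spreads are not on an equal footing. Nr1d1 and Nr0b2, the factors with the largest differences, were dimmer on every array than the brightest probe set of any apolipoprotein. The brightest apolipoproteins were tied to rank by quantile normalization. Whether the factors differ from other genes of like signal was not tested. Of 22 on the array 19 passed the filter, 12 higher and 7 lower in drug than in control livers, with a median of 0.18. None passed the limma adjusted threshold, and 4 were higher at an unadjusted p under 0.05, a rule by which 4.19% of all probe sets were higher and 3.03% lower. Nr1d1, the circadian repressor REV-ERB alpha, was at 6.47, 6.39 and 7.38 in drug, 5.14, 3.85 and 5.30 in model and 2.12, 3.70 and 4.37 in control livers. All drug arrays lay above all model and control arrays, by 1.98 (SE 0.594; limma adjusted p 0.998) and 3.35 (SE 0.594; limma adjusted p 0.676). Nr0b2, the small heterodimer partner that represses nuclear receptors, was 2.34 higher in drug than in control livers (SE 0.652; limma adjusted p 0.676), and 1.5 higher without control 3. Srebf1, a regulator of fatty acid synthesis, was at 9.35, 9.63 and 10.75 in drug and 8.19, 8.62 and 9.07 in model livers, a difference of 1.28 (SE 0.379; limma adjusted p 0.998). Hnf4a, which binds many apolipoprotein promoters, differed by 0.08 in drug against control (SE 0.269, limma adjusted p 0.941). In model against control its difference was 0.46 (SE 0.269, limma adjusted p 0.482), without overlap. Its signals were 10.69, 10.95 and 11.05 in model arrays 1, 2 and 3. Those of control arrays 1, 2 and 3 were 10.14, 10.50 and 10.67, so model 1 lay just above control 3. The drug minus model difference of Hnf4a was −0.37 (SE 0.269, limma adjusted p 0.998), with overlap. Hnf4a was named after its values were seen.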
